A study of Mus musculus with 2 samples.

Results

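The SLC25 family comprises the mitochondrial solute carriers, here the 47 protein-coding mouse genes whose symbols begin with Slc25a, out of 43346 mouse genes in the deposited tables, 21474 of them protein-coding. Poly(A) RNA longer than 200 nt from the adrenal glands of adult C57BL/6J mice aged 8 weeks was sequenced as stranded paired-end reads of 76 nt. The glands came from littermates of both sexes, and the sex makeup of each library is not given in the labels. The 2 libraries are labelled biological replicates 1 and 2 of 1 group, with no treatment, mutation or control group. Members were found by gene identifier and were not chosen by their level, and members are given below with their level in each library as TPM, a unit scaled to depth and to transcript length. With 2 libraries every SD describes the spread between these samples alone.

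SLC25 carriers are small proteins built from a repeated sequence, and nearly every one sits in the inner mitochondrial membrane. They exchange substrates of respiration, amino acid, nucleotide, cofactor and iron metabolism between the cytosol and the mitochondrial matrix, often one substrate against another. In steroid-producing cells of the adrenal cortex, cholesterol is cleaved inside mitochondria by Cyp11a1, a reaction that needs NADPH, while citrate exported from mitochondria supplies acetyl groups for fatty acid and sterol synthesis in the cytosol.

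The libraries held 47615328 expected counts in replicate 1 and 52890686 in replicate 2, an expected count being a gene's estimated number of read pairs. Genes of the adrenal cortex (7 listed markers) took 2.30% and 3.10% of TPM, and chromaffin cell genes (7 markers) took 0.396% and 0.365%. The 21-hydroxylase gene Cyp21a1 stood at 14483 and 19341 TPM, so the labelled tissue was present in both. Adipose genes (8 markers, all above 0) took 1.49% and 0.660%, with the brown fat uncoupling protein gene Ucp1 at 1129 and 544 TPM. Liver genes were near 0 (0.000445% and 0.00302%), as were skeletal muscle genes (0.000504% and 0.000165%, with Myh4 at 0). In bulk tissue, fewer cells of a type and less RNA per cell cannot be told apart.

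Most of the family was expressed in the adrenal gland, at widely different levels. At 1 TPM or more, 38 of the 47 members were detected in both libraries, which is 80.85% of members against 54.57% of all protein-coding genes. By the lower of their 2 values, 11 of these members reached 100 TPM, 17 more reached 10 TPM, and 10 lay between 1 and 10 TPM. Below 1 TPM in both libraries lay 8 members, and Slc25a18 was detected in replicate 1 alone. The median detected member stood at 44.3 and 44.9 TPM, against 14.8 and 15.3 TPM for detected protein-coding genes. The members together took 6333 and 7334 TPM, which is 0.641% and 0.740% of all TPM (mean 0.690% ± 0.0703, SD, n = 2).

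A few carriers held most of this total. Slc25a3 alone made up 27.9% of the family's TPM in replicate 1 and 41.8% in replicate 2. The 4 highest members, Slc25a3, Slc25a39, Slc25a1 and Slc25a10, made up 65.0% and 70.2%. Without Slc25a3 the order of the libraries turned, at 4567 and 4265 TPM. The ranking of members was coarse below these 4 genes. Of the 46 steps between neighbours in the order of mean level, the ranges of the 2 libraries overlapped in 24, and in 17 the order turned from one library to the other. Splice junction reads, which name no replicate, are taken here and below as pooled over both libraries. By the median intron in these reads, Slc25a3 (380 along Slc25a3-206, 646 along Slc25a3-201) lay below Slc25a39 (3115), Slc25a10 (2580) and Slc25a1 (820).

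**Figure D1:**
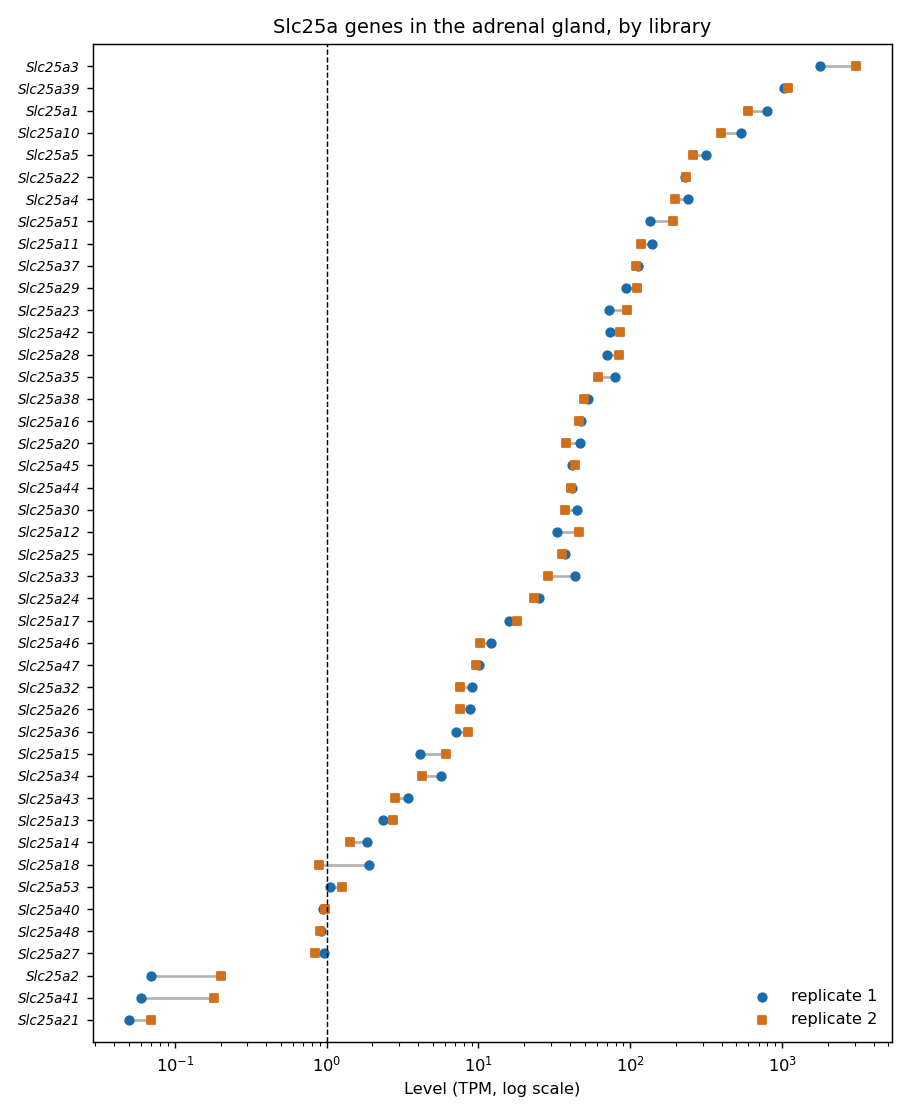
Level of 44 Slc25a members above 0 in TPM (log axis), with replicate 1 as circles and replicate 2 as squares joined by a line, ordered by mean; the dashed line marks 1 TPM. Slc25a3 leads in both libraries, Slc25a39 follows at 1027 and 1088 TPM, and Slc25a2, Slc25a41 and Slc25a21 lie below 1 TPM.

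Carriers of adenine nucleotides and phosphate, which supply the substrates of ATP synthesis, made up the largest share of family TPM among the 9 role groups, 36.6% in replicate 1 and 48.1% in replicate 2. Slc25a3, which brings phosphate into the matrix together with protons, stood at 1766 and 3068 TPM, ranks 57 and 25 among protein-coding genes. The gene lies at chr10:91116574-91124059 on the minus strand of GRCm38 (mm10). Slc25a5, the broadly used ADP/ATP carrier, stood at 314 and 259 TPM. Slc25a4, the ADP/ATP carrier known from heart and muscle, stood at 241 and 198 TPM. Both ADP/ATP carriers were thus higher in replicate 1 and the phosphate carrier was higher in replicate 2 in TPM. The Slc25a3 direction followed 1 transcript, Slc25a3-206, at 866 and 2336 TPM. Slc25a3-201 (667 and 522 TPM), Slc25a3-208 (174 and 161 TPM) and Slc25a3-203 (57.2 and 47.5 TPM) were higher in replicate 1. The exon particular to Slc25a3-206 had few junction reads, 247 to the preceding exon and 1 to the next. Slc25a31, the ADP/ATP carrier of male germ cells, had 0 counts in both libraries, which allows up to 3 counts, or 0.0603 and 0.0561 TPM.

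Carriers of citrate and other organic acids made up 23.1% of family TPM in replicate 1 and 15.1% in replicate 2. Slc25a1, which exports citrate to the cytosol, stood at 791 and 593 TPM. Slc25a10, which exchanges malate and succinate for phosphate, stood at 533 and 397 TPM. Slc25a11, which exchanges oxoglutarate for malate and is a part of the malate-aspartate shuttle, stood at 138 and 117 TPM. All 3 were higher in replicate 1 in TPM. Slc25a21, a carrier of oxoadipate and related acids, had 4 and 6 counts (0.05 and 0.07 TPM).

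Carriers of iron and glutathione made up 19.1% and 17.5% of family TPM, most of it in 1 gene. Slc25a39, which is needed for glutathione import into mitochondria, stood at 1027 and 1088 TPM, the second level of the family in both libraries. Its relative Slc25a40 had 85 and 93 counts (0.95 and 0.97 TPM). Slc25a37 (mitoferrin 1), an iron importer known from developing red cells, stood at 112 and 109 TPM. Slc25a28 (mitoferrin 2), the iron importer of other tissues, stood at 70.6 and 84.8 TPM. Erythroid genes (5 markers, globins and Alas2) took 0.380% and 0.495% of TPM, so RNA of red cells was present, and its part in the Slc25a37 level was not tested.

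The 9 carriers of coenzymes and nucleotides were each detected in both libraries and made up 7.88% and 7.69% of family TPM. Slc25a51, which imports NAD+, stood at 135 and 191 TPM, in TPM above the other carriers of this group named here. As counts per kb of the longest protein-coding transcript, Slc25a51 (1832 and 2692) instead lay below Slc25a42 (2475 and 3104). The median intron in the pooled junction reads gave the same order, 66 against 193 reads. The transcript table placed 51.6% and 43.4% of the Slc25a51 TPM in Slc25a51-203, of 1005 nt. Slc25a42, a coenzyme A carrier, stood at 73.0 and 85.2 TPM, and Slc25a16, also linked to coenzyme A, at 47.2 and 46.2 TPM. The pyrimidine nucleotide carrier Slc25a33 stood at 43.4 and 28.8 TPM and its relative Slc25a36 at 7.11 and 8.48 TPM. Lower in the group were Slc25a17, a carrier of peroxisomes (15.9 and 18.0 TPM), the folate and FAD carrier Slc25a32 (9.07 and 7.61 TPM) and the S-adenosylmethionine carrier Slc25a26 (8.83 and 7.51 TPM).

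Among the glutamate and aspartate carriers, 1 member of each pair was far higher than the other in TPM. The glutamate carrier Slc25a22 stood at 228 and 234 TPM, whereas the other glutamate carrier, Slc25a18, stood at 1.89 and 0.89 TPM with 77 and 39 counts. The aspartate/glutamate carrier Slc25a12 (aralar), a part of the malate-aspartate shuttle, stood at 33.1 and 46.3 TPM. Its relative Slc25a13 (citrin), known from liver, stood at 2.35 and 2.72 TPM. The coding transcript Slc25a12-206 alone stood at 10.05 and 10.23 TPM.

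Carriers of carnitine and of basic, branched-chain and small amino acids made up 3.77% and 3.32% of family TPM. Slc25a29, a carrier of basic amino acids, stood highest at 93.8 and 110 TPM. Slc25a38, the glycine carrier that serves heme synthesis, stood at 52.6 and 49.5 TPM. Slc25a20, the carnitine/acylcarnitine carrier of fatty acid oxidation, stood at 46.9 and 37.7 TPM, and the branched-chain amino acid carrier Slc25a44 at 41.2 and 40.4 TPM. The ornithine carrier Slc25a15 was low, at 4.12 and 6.10 TPM, and the other ornithine carrier, Slc25a2, had 3 and 9 counts (0.07 and 0.20 TPM).

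The calcium-regulated carriers of ATP-Mg and phosphate made up 2.14% and 2.10% of family TPM. Slc25a23 stood at 72.8 and 94.8 TPM, Slc25a25 at 37.3 and 35.5 TPM and Slc25a24 at 25.1 and 23.2 TPM. Their order was the same in both libraries. Of their relatives, Slc25a41 had 2 and 7 counts (0.06 and 0.18 TPM) and Slc25a54 had 0 counts in both libraries, which allows up to 0.0616 and 0.0573 TPM.

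The relatives of the uncoupling proteins were low apart from Slc25a30. Slc25a30 stood at 44.3 and 36.9 TPM, Slc25a14 at 1.84 and 1.42 TPM and Slc25a27 at 0.96 and 0.84 TPM. Of the 8 remaining members, Slc25a35 stood highest at 79.1 and 61.6 TPM, followed by Slc25a45 at 41.1 and 43.5 TPM. Slc25a46, which sits in the outer membrane and takes part in mitochondrial dynamics, stood at 12.1 and 10.3 TPM. The others were Slc25a47 (10.1 and 9.70 TPM), Slc25a34 (5.68 and 4.24 TPM), Slc25a43 (3.41 and 2.82 TPM), Slc25a53 (1.06 and 1.26 TPM) and Slc25a48 (0.92 and 0.90 TPM). The 8 kept the same order in both libraries.

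Members that lie next to each other in the genome differed widely in level. The genes of 4 pairs lay within 50000 bp of each other. Slc25a29 and Slc25a47 lie on opposite strands of chromosome 12 with a gap of 162 bp, and their mean levels were 102 ± 11.3 and 9.92 ± 0.311 TPM (SD, n = 2). On chromosome 17, Slc25a41 lies 2056 bp from Slc25a23, with means of 0.12 and 83.8 TPM. On chromosome 3, Slc25a54 lies 6461 bp from Slc25a24, with means of 0 and 24.1 TPM. On chromosome X, Slc25a43 lies 18448 bp from Slc25a5, with means of 3.12 and 287 TPM. In each of these 4 pairs, the 2 libraries put the same gene higher.

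Carriers that share a substrate or are close relatives were compared within each library, 10 pairs in all. The first named member was higher in both libraries in 6 pairs and the second in 4, and no pair changed its order between the libraries. Slc25a39 exceeded Slc25a40 by 1081-fold in replicate 1 and 1122-fold in replicate 2, although their coding sequences are 60.1% identical over the aligned bases. As counts per kb of the longest protein-coding transcript this was 714-fold and 728-fold. Slc25a22 exceeded Slc25a18 by 121-fold and 262-fold, a ratio that rests on few Slc25a18 counts. Slc25a12 exceeded Slc25a13 by 14.1-fold and 17.004-fold, at 71.9% identity, and by 6.52-fold and 7.66-fold per kb. In each of these 3 pairs the first member was higher in both libraries, in TPM and per kb.

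The other ratios were smaller or less firm. Slc25a15 exceeded Slc25a2 by 58.9-fold and 30.5-fold, with 3 and 9 counts of Slc25a2. Slc25a23 exceeded Slc25a24 by 2.90-fold and 4.10-fold, and Slc25a25 exceeded Slc25a24 by 1.48-fold and 1.53-fold. Per kb the Slc25a23 ratio was 4.38-fold and 4.41-fold and the Slc25a25 ratio 2.25-fold and 2.00-fold. By the median intron of the pooled junction reads these became 45.0-fold and 8.88-fold, with a median of 4 reads per intron of Slc25a24. Slc25a11 stood at 0.259 and 0.295 of the level of Slc25a10, and Slc25a36 at 0.164 and 0.295 of that of Slc25a33. Slc25a4 stood at 0.766 and 0.765 of the level of Slc25a5, at 77.4% identity, so this ratio was nearly equal in the 2 libraries.

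For Slc25a28 and Slc25a37 the order depended on which transcript length was used. Slc25a28 stood at 0.632 and 0.777 of the TPM of Slc25a37. As counts per kb of the longest protein-coding transcript, Slc25a28 was instead 1.98-fold and 2.61-fold higher. The transcript table placed 71.6% and 73.9% of the Slc25a37 TPM in Slc25a37-202, a transcript of 342 nt, and 19.9% and 17.8% in Slc25a37-201, of 4174 nt. Neither of the 2 introns of Slc25a37-202 was listed in the deposited splice junction table, whereas the 3 introns of Slc25a37-201 had 443, 38 and 265 reads. The high TPM of Slc25a37 thus rested on a short transcript with no listed junction read.

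**Figure D2:**
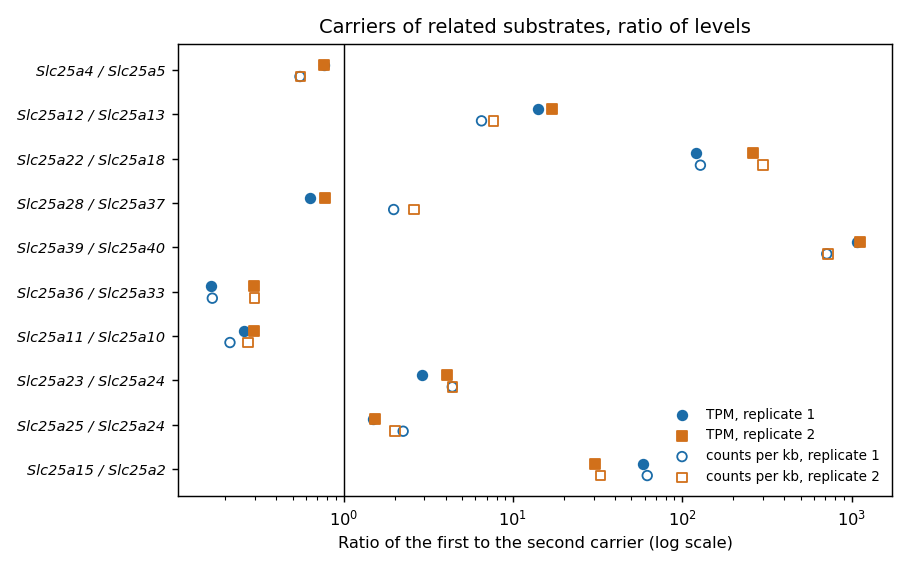
Ratio of the first to the second carrier of each of the 10 pairs (log axis), as TPM (filled) and as counts per kb of the longest protein-coding transcript (open), for replicate 1 (circles) and replicate 2 (squares). The Slc25a28/Slc25a37 ratio lies below 1 in TPM (0.632 and 0.777) and above 1 per kb (1.98 and 2.61), while the other 9 pairs keep their side.

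The ADP/ATP carrier pair differed between TPM and spliced reads. Slc25a4 had 1148, 1936 and 864 junction reads in its 3 introns, pooled over the libraries. Slc25a5 had 3492 reads in its first intron and 23 and 33 in the next introns. By the median intron Slc25a4 was thus 34.8-fold above Slc25a5, the reverse of the TPM order, whereas the first introns alone put Slc25a5 higher. The transcript table placed 92.8% and 87.7% of the Slc25a4 TPM in Slc25a4-202, annotated as a retained intron, and 7.21% and 12.3% in the coding transcript Slc25a4-201. The 864 reads in the last intron joined the terminal exon of Slc25a4-201, which Slc25a4-202 lacks. Reads across this intron were therefore not scarce beside the 1148 and 1936 of the introns that both transcripts share.

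Slc25a3 carries a pair of alternative exons, which in human give a form used in heart and skeletal muscle and a form used broadly. The upstream exon, chr10:91122207-91122331 (GRCm38, minus strand, 125 nt), is in Slc25a3-206. The downstream exon, chr10:91121922-91122043 (122 nt), is in Slc25a3-201 and Slc25a3-203. They are shown 5′ to 3′ on the transcribed strand, from the GENCODE transcripts, because the tables differ on which one is used. Capitals mark bases that differ between the aligned exons or have no partner.
upstream exon: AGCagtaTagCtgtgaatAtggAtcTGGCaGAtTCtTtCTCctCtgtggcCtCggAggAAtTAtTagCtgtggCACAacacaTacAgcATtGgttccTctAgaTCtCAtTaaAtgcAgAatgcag
downstream exon: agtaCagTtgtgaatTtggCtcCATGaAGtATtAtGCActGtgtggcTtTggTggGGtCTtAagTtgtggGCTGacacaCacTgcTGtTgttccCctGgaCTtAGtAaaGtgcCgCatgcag

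The exons were identical at 77 of 122 aligned bases (63.1%). The transcript table placed 49.0% of the Slc25a3 TPM in replicate 1 and 76.1% in replicate 2 in the upstream-exon transcript Slc25a3-206. It placed 41.0% and 18.6% in the downstream-exon transcripts. Junction reads, pooled over the libraries, gave the opposite order. Of 19983 reads joining either exon to the preceding exon, 19736 joined the downstream exon, which is 98.8% (exact 95% binomial interval 98.6 to 98.9%). Of 229 reads joining either exon to the next exon, 228 joined the downstream one, which is 99.6% (97.6 to 99.99%). The intervals cover counting error only. The muscle genes Ckm (0.52 and 0.50 TPM) and Acta1 (4.46 and 1.14 TPM) were low in both libraries.

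**Figure D3:**
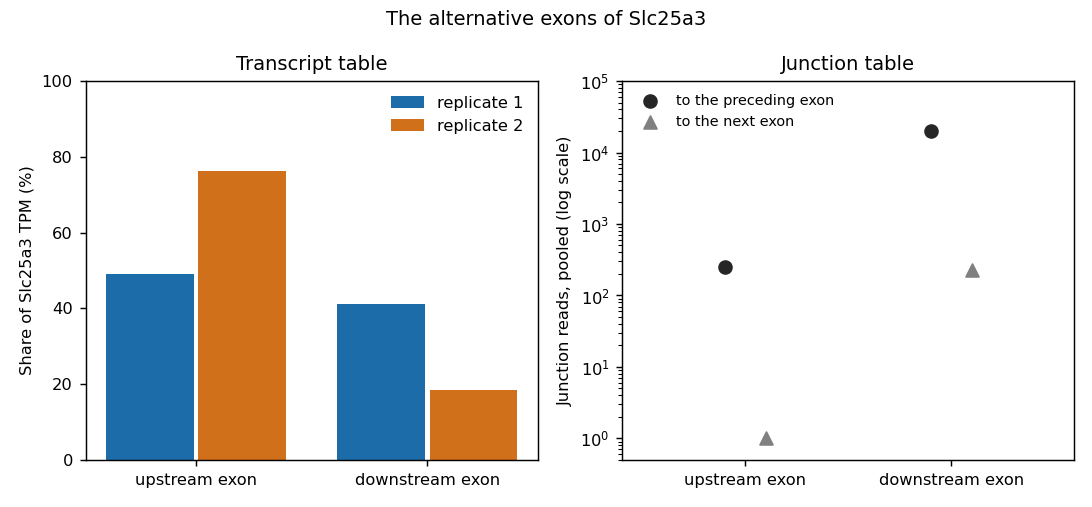
Use of the alternative exons of Slc25a3, as the percent of Slc25a3 TPM in transcripts with each exon (left, bars for each replicate) and as pooled junction reads to the preceding exon (circles) and the next exon (triangles) on a log axis (right). The transcript table puts more in the upstream exon, 49.0% and 76.1%, whereas 19736 of 19983 reads to the preceding exon join the downstream one.

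Junction reads were spread unevenly along Slc25a3. The intron between the first and second exons had 206279 reads, the 3rd highest junction of the 378838 listed and 0.580% of all 35587975 junction reads. These reads came to 83.7% of the 246397 expected counts of Slc25a3 in both libraries. The last 4 introns, shared by the coding transcripts, had 380, 119, 646 and 929 reads. Along Slc25a3-206, which has the longest coding sequence, the highest intron exceeded the median intron by 543-fold, and along Slc25a3-201 by 319-fold. Over the 41 members with a median above 0, this ratio had a median of 5.24, and it was above 10 in 13 members. Other high ratios were those of Slc25a24 (161), Slc25a33 (121), Slc25a5 (106) and Slc25a16 (85.2). The first intron was the highest in 17 of the 42 members recognised in the junction table. A missing or low intron in this table therefore does not show that a transcript is unused.

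**Figure D4:**
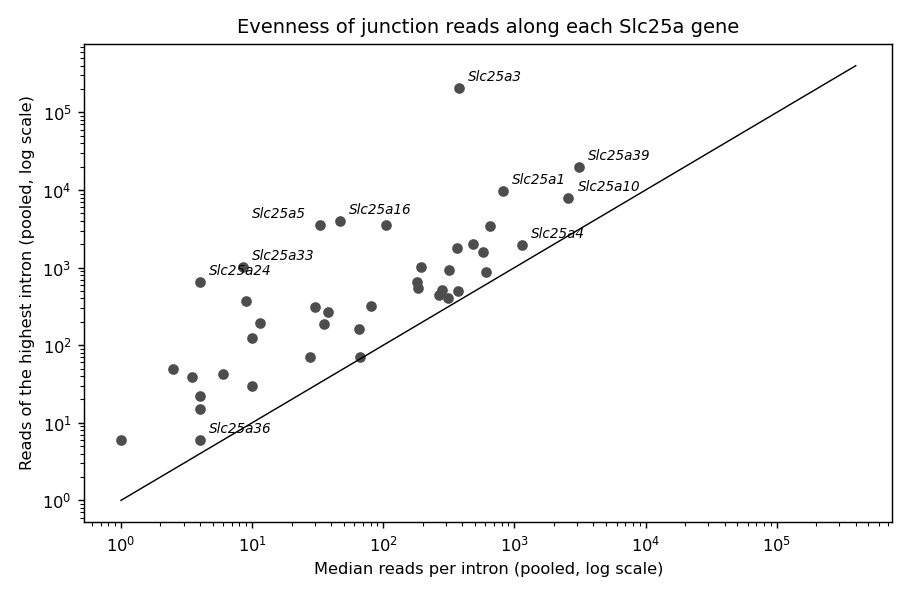
Reads of the highest intron against the median reads per intron of each of 41 Slc25a members (both log axes, pooled over libraries, along the transcript with the longest coding sequence of each member). The line marks equality, and Slc25a3 lies farthest above it, at 206279 against 380 reads.

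The leading transcript, the one with the highest TPM of its gene, was the same in both libraries for 35 of the 38 members detected in both. Of these, 10 have 1 annotated transcript, and of the 28 with more, 25 kept the same leader. In 12 of the 38 members, the leader of replicate 1 had at least 1 intron without a junction read. Slc25a39 was split almost evenly in TPM between Slc25a39-201 (48.2% and 46.4%) and Slc25a39-212 (46.5% and 48.0%), both protein-coding. Junction reads were not split evenly: the first intron of Slc25a39-212 had 2 reads and that of Slc25a39-201 had 1356. Slc25a35 was led by Slc25a35-203, not annotated as coding, in replicate 1 (61.1%) and by the coding Slc25a35-202 in replicate 2 (42.3%). Slc25a12 was led by Slc25a12-205 in replicate 1 (44.0%) and by Slc25a12-207 in replicate 2 (51.4%). Neither of the Slc25a12 leaders is annotated as protein-coding, and the coding Slc25a12-206 held 30.3% and 22.1%. The introns particular to Slc25a12-205 and to Slc25a12-207 each had 0 junction reads, and that particular to Slc25a12-206 had 12.

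Some carriers had much of their TPM in transcripts that are not annotated as coding. Slc25a4, Slc25a42, Slc25a24, Slc25a53 and Slc25a12 were led by such a transcript in both libraries. In 7 members the coding transcripts held less than 50% of the TPM in both libraries, whereas in 26 members they held over 90% on average. Slc25a24 had 65.0% and 50.6% in Slc25a24-202, annotated for nonsense-mediated decay. The intron by which Slc25a24-202 skips an exon was not listed, and the introns on either side of that exon had 1 and 2 reads. Slc25a1 (97.0% and 98.6%), Slc25a10 (90.4% and 91.3%), Slc25a20 (98.0% and 99.7%) and Slc25a29 (98.1% and 97.3%) each had over 90% in 1 coding transcript.

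Coding length set a few members apart. It ran from 795 to 2031 nt with a median of 954 nt, and 38 of the 47 members lay between 850 and 1200 nt. Slc25a12 and Slc25a13, which carry a calcium-binding part before the carrier part, had the longest coding sequences, 2031 and 2028 nt. The calcium-regulated Slc25a23, Slc25a24 and Slc25a25 had 1401, 1425 and 1542 nt. Slc25a2, the shortest at 795 nt, was the 1 member with a single exon.

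Few members differed much between the libraries. Of 42 members with a summed count of at least 20, 1 differed at least 2-fold with an adjusted p under 0.05, against 6.92% of the 15824 genes tested. The test was a two-sided exact binomial test on counts scaled by TMM, with Benjamini-Hochberg adjustment over all genes. It compares 2 libraries, not conditions. With a summed count of at least 100, the same 42 members were tested, and 1 was called beside 462 of 13266 genes. Slc25a18 was the member called, with a log2 ratio of 1.12 (95% interval 0.56 to 1.72) higher in replicate 1 and an adjusted p of 0.000147 in the exact test. Under spike-in scaling its log2 ratio was 0.69 and no tested member reached 2-fold, with Slc25a3 nearest at -0.999. At 1.5-fold, Slc25a33 was called as well (log2 ratio 0.64, interval 0.55 to 0.73), against 15.7% of all genes.

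By adjusted p alone, 16 members were higher in replicate 1, 11 were higher in replicate 2 and 15 did not pass, whereas under spike-in scaling 3 and 29 were higher and 10 did not pass. At this depth small ratios pass, and 58.3% of all genes tested did. The members' median log2 ratio of replicate 1 over replicate 2 was 0.07, with a range from -0.57 to 1.12, beside a median of -0.0045 for all genes. Spike-in scaling moved the median of all genes by -0.43, so the directions that follow are relative to other genes in the library.

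Slc25a3 was the member highest in replicate 2 relative to replicate 1, with a log2 ratio of -0.57 (95% interval -0.58 to -0.56). The ornithine carrier Slc25a15 followed at -0.52 (-0.69 to -0.35), the NAD+ carrier Slc25a51 at -0.41 (-0.45 to -0.37) and Slc25a12 at -0.39 (-0.46 to -0.33). These 4 passed by adjusted p. Under spike-in scaling the log2 ratios grew to -0.999 for Slc25a3, -0.95 for Slc25a15, -0.84 for Slc25a51 and -0.82 for Slc25a12. Within Slc25a3, the transcript Slc25a3-206 stood at 866 and 2336 TPM, whereas Slc25a3-201 stood at 667 and 522 TPM. In the same libraries the 7 cortex genes were each higher in replicate 2 by adjusted p, with a median log2 ratio of -0.57. The 5 erythroid genes (median -0.41) and the 5 liver genes (median -4.15, each past 2-fold) were also higher in replicate 2. The part of cortical, red cell or liver RNA in the ratios of these carriers was not tested.

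The 3 tested organic acid carriers were higher in replicate 1 in TMM-scaled counts. Slc25a10 had a log2 ratio of 0.46 (95% interval 0.44 to 0.49) and Slc25a1 of 0.45 (0.43 to 0.47). Under spike-in scaling these 2 ratios fell to 0.03 and 0.02. Slc25a11 had a ratio of 0.11 (0.06 to 0.17), which turned to -0.32 under spike-in scaling. The ADP/ATP carriers Slc25a4 (0.28) and Slc25a5 (0.29) also passed, with -0.15 and -0.14 under spike-in scaling, as did the carnitine carrier Slc25a20 (0.35, and -0.08). In the same libraries 7 of the 8 adipose genes were higher in replicate 1 by adjusted p, 2 of them past 2-fold, with a median of 0.84. The part of adipose RNA in the ratios of these carriers was not tested.

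**Figure D5:**
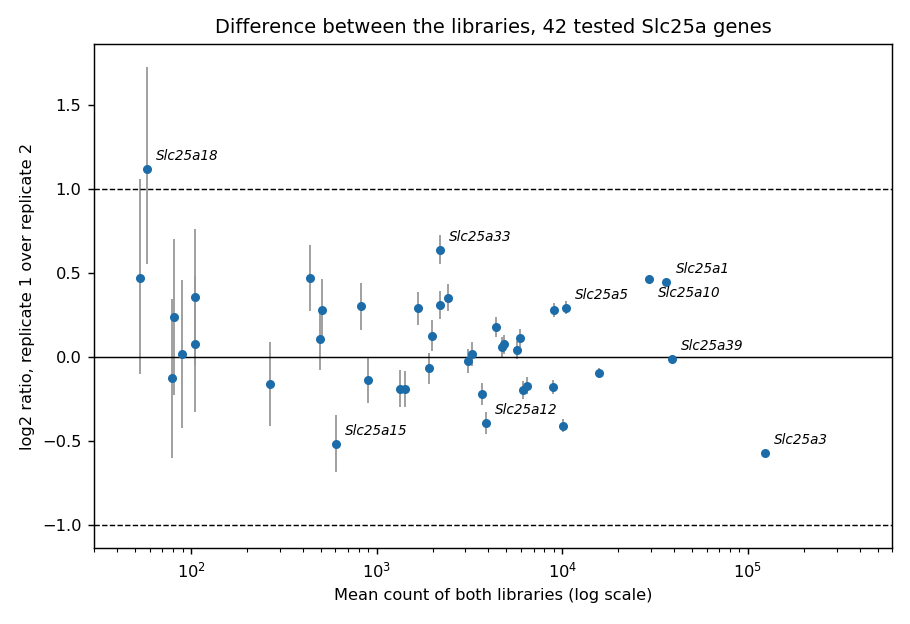
Log2 ratio of scaled counts, replicate 1 over replicate 2, against the mean count (log axis) for the 42 tested Slc25a members, with 95% intervals for counting error. Dashed lines mark 2-fold, and Slc25a18 at 1.12 is the 1 member beyond them, while Slc25a3 lies lowest at -0.57.

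Genes related to the carriers or working beside them were also measured. The family's relatives under other symbols took 0.213% and 0.131% of TPM. Of these, Ucp1 (1129 and 544 TPM) and Ucp3 (35.8 and 16.8 TPM) were past 2-fold, both higher in replicate 1, while Ucp2 stood at 458 and 330 TPM. The outer membrane proteins Mtch1 and Mtch2 stood at 456 and 370 TPM and at 29.0 and 35.7 TPM. Ucp1 and Ucp3 moved with the adipose genes, of which Ucp1 is one.

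Both subunits of the mitochondrial pyruvate carrier, which is no SLC25 protein, were higher in replicate 1 by adjusted p, and none reached 1.5-fold. Mpc1 stood at 122 and 91.7 TPM and Mpc2 at 232 and 206 TPM. Of the 3 outer membrane channel genes, Vdac1 and Vdac2 were higher in replicate 2 by adjusted p, and Vdac3 (6.15 and 6.19 TPM) did not pass. Of the 10 genes that carry SLC25 proteins to the inner membrane, the test passed 3 as higher in replicate 1 and 1 as higher in replicate 2, leaving 6, with a median log2 ratio of 0.01. Timm10b stood highest of them at 870 and 739 TPM.

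Enzymes of pathways that the carriers serve showed both directions. Fasn, the fatty acid synthase that draws on exported citrate through Acly, stood at 9219 and 6752 TPM, and Acly, which splits citrate, at 572 and 621 TPM. Of the 6 enzymes listed for the use of citrate and its products in the cytosol, 3 were higher in each library by adjusted p. Among the malate-aspartate shuttle enzymes, Mdh2 stood at 1085 and 908 TPM, and Got1 at 56.1 and 96.0 TPM was the 1 of 4 called at 1.5-fold. Of the 5 carnitine shuttle enzymes, 4 were higher in replicate 1 and Cpt1a (112 and 157 TPM) was higher in replicate 2, with Crat (450 and 327 TPM) called at 1.5-fold. No enzyme of these 3 lists was past 2-fold.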

How the data were processed

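The authors deposited, for each library, gene and transcript tables with expected counts, TPM and FPKM on mm10 (annotation M4, per the deposited readme files), and for each transcript its percent of the gene's TPM, as deposited. The quantifier is not named in these sources. A deposited junction table on mm9 gives a read count per junction. No replicate is given for it, and it was taken as pooled over the libraries. Names came from GENCODE M21 (GRCm38), matching 42462 of 43346 identifiers. Members and lists were chosen with earlier results of these data known; named genes are the members and the listed related and marker genes. Spike-ins and phiX (0.925% and 0.758% of counts) were left out. Expected counts were rounded, scaled with TMM (edgeR 4.0.16, R 4.3.3) and compared by a two-sided exact binomial test per gene (scipy 1.17.1), tested on simulated data; p-values measure only these 2 libraries. Carriers were recognised on mm9 by the lengths and spacing of at least 3 introns, ends within 3 nt, and no coordinates were carried between builds. Fractional counts, split with other loci, occurred in 15 members in replicate 1 and 2 in replicate 2. Pairs were aligned over coding sequence with Biopython 1.88. Alternatives included DESeq2 1.42.0 size factors. The values of 1 member are not reported here, though it counts in the totals.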

Additional observations from a re-analysis of the deposited data

How the results depend on the processing

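Of 87 alternative values, 68 stayed within the limits set for them, 16 moved and 3 turned. For the family's share and the pair ratios the limit was the SD of the 2 libraries. A value with 1 replicate left out always lies within that limit, and counts per effective length restate TPM up to rounding. Many of the 68 therefore could not have moved, and the tally does not measure how firm the results are. The number of members detected in both libraries was 42 at 0.5 TPM, 32 at 5 TPM, 36 by FPKM and 38 by posterior mean TPM, and 38 to 39 with each replicate left out. The family's share of TPM was 0.641% to 0.740% with each replicate left out and 0.446% without Slc25a3, an alternative chosen after seeing the data. The count of 1 member past 2-fold became 0 with spike-in scaling, 2 at 1.5-fold, 27 with no minimum fold and 0 in edgeR's exact test with an assumed coefficient of variation of 0.2. Over all genes the count of 1095 was 462, of 13266 tested, with a summed count of at least 100. It was 2491 at 1.5-fold, 9219 with no minimum fold and 244 in edgeR's exact test. With spike-in scaling the split over all genes went from 689 higher in replicate 1 and 406 higher in replicate 2 to 289 and 1303. Mean log2 ratios that turned were those of Slc25a28 over Slc25a37, from -0.51 to 1.18 per kb of the longest protein-coding transcript and 1.13 by junction reads, and of Slc25a4 over Slc25a5, from -0.39 to 5.12 by junction reads. Both alternatives were chosen after seeing the data, and the cause was not tested. The first member was higher in 6 of 10 pairs by TPM and by posterior mean TPM, and in 7 per kb. The same count of 6 by counts per effective length and with each replicate left out follows from the TPM values and is no separate check. By junction reads the first member was higher in 6 of the 8 pairs with a value, among them the 2 that turned. Without turning, the mean log2 ratio of Slc25a12 over Slc25a13 went from 3.95 to 2.82 per kb, that of Slc25a23 over Slc25a24 from 1.78 to 5.49 by junction reads, that of Slc25a25 over Slc25a24 from 0.59 to 3.15, and that of Slc25a36 over Slc25a33 from -2.19 to -1.09. Leading transcripts could not be set with a library left out. No paired analysis was possible because both libraries belong to 1 group. Depth limits the members with under 20 counts, and no test with replication could be made.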
